A study of Nicotiana benthamiana with 9 samples.

Results

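The plastid genes psbD, psbC and psbZ lie in a row on 1 strand and were chosen by name, 3 of the 106 rows of the count table, of which 105 are plastid genes and 1 is the editor transgene. All 3 were found and passed the filter on low counts. Their levels were followed in 9 libraries from leaves of Nicotiana benthamiana, a plant close to tobacco in which genes are often expressed transiently. Leaves carried the P19 silencing suppressor alone (P19, 3 libraries), or P19 with dPPRerpl2, a designed RNA editing factor, from the vector pGWB2 (3 libraries) or pMDC32 (3 libraries). All plants are labelled as wild type, and by the sample titles P19 was in every group. Replicate 1 of each group is labelled 2 days post infiltration (dpi) and replicates 2 and 3 are labelled 3 dpi, although according to the series text all were taken at 3 dpi. The labels do not give the promoters of the constructs, the ages of the plants or any pooling of leaves.

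Photosystem II is the thylakoid complex that oxidizes water. psbD encodes D2, which pairs with D1, the psbA product, to form its reaction centre. psbC encodes CP43, a chlorophyll-binding inner antenna protein whose partner on the other side of the core is CP47, the product of psbB. psbZ, formerly named ycf9, encodes a small membrane subunit which in tobacco is known to help hold the light-harvesting antenna to the core. In land plants psbD and psbC are transcribed together, and in several species a light-responsive promoter lies upstream of psbD.

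The 3 rows cover positions 34443 to 37741 of the plastid sequence, 3299 nt on the plus strand, in the coordinates of the table, for which the sources name no build. The psbD row runs from 34443 to 35504 (1062 nt) and the psbC row from 35488 to 36873 (1386 nt), so that they overlap by 17 nt. The psbZ row runs from 37553 to 37741 (189 nt), and 679 nt without any row separate it from psbC. No other row lies inside the span. How reads in the overlap, or reads reaching beyond a short row such as psbZ, were counted is not stated in the labels or the table.

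The libraries held from 32457135 to 44392760 counted reads. The 3 genes together took 2.92% to 4.14% of them, and psbA alone took 44.0% to 61.1%. With psbA set aside, the share of the 3 genes was 6.31% to 8.20% of the remaining reads. The library of P19 replicate 1 stood apart: its psbA share was the 61.1%, and its share of the 3 genes was the 2.92%. As a check of the labels, the transgene had 0, 11 and 4 reads in the P19 libraries and 53090 to 359902 in the 6 editor libraries. Of the plastid genes fixed as signs of photosynthetic leaf, psbA and rbcL ranked 1 and 2 by mean level per length, while psaB and psaA ranked 36 and 37 of 105. Nuclear genes were not analysed here, so the tissue was not checked further. Fewer plastids per leaf and less RNA per plastid cannot be told apart, since every level below is relative to the other plastid genes.

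psbC was the most abundant of the 3 transcripts and psbZ the least. Levels are given as CPM, counts scaled to a common library size, after scaling libraries by the trimmed mean of M values (TMM). Per kilobase of row, psbC stood at 15705 ± 1477 CPM, psbD at 11911 ± 1414 and psbZ at 8898 ± 859 (SD, n = 9). Over libraries the ranges of neighbours in this order overlapped, from 13166 to 17547 for psbC, 9919 to 14428 for psbD and 7937 to 10393 for psbZ. Within a library the order psbC, psbD, psbZ held in 9 of 9, and psbB, for CP47, lay below all of them at 6593 ± 493 CPM per kilobase (SD, n = 9). Per kilobase, psbC exceeded psbD by 1.22 to 1.40 times and psbD exceeded psbZ by 1.25 to 1.48 times. psbA exceeded psbD by 31.2 to 62.0 times, the highest factor being that of P19 replicate 1. By CPM without regard to length, psbC ranked 4 of 105 plastid genes in every library, psbD ranked 5 to 8 and psbZ 33 to 42. psbB, at 10067 ± 753 CPM, then stood above psbZ at 1682 ± 162 CPM (SD, n = 9). The place of psbZ above psbB thus rests on dividing by its row of 189 nt, and how reads reaching beyond so short a row were counted is not stated.

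The psbD transcript, for D2, stood at 13280, 14099 and 13023 CPM in P19 replicates 1 to 3. With pGWB2 it stood at 12948, 11578 and 11672 CPM, and with pMDC32 at 15323, 11389 and 10534 CPM. All pGWB2 libraries lay below all P19 libraries, whereas the pMDC32 libraries held both the highest and the lowest value of the 9. The psbC transcript, for CP43, stood at 24252, 22775 and 22719 CPM in P19. With pGWB2 it stood at 22354, 20257 and 21050 CPM, and with pMDC32 at 24320, 19927 and 18248 CPM. As with psbD, pGWB2 did not overlap P19 and pMDC32 spanned it. Such separation of pGWB2 from P19 in CPM was seen in 14 of 105 plastid genes (13.3%). As shares of all counted reads, psbD was 0.986%, 1.51% and 1.25% in P19 against 1.33%, 1.16% and 1.25% with pGWB2. psbC was 1.80%, 2.45% and 2.17% in P19 against 2.30%, 2.03% and 2.26% with pGWB2. By that measure, without TMM scaling, these groups overlapped for both genes. The psbZ transcript stood at 1855, 1695 and 1585 CPM in P19, at 1808, 1635 and 1503 CPM with pGWB2, and at 1964, 1590 and 1500 CPM with pMDC32. For psbZ all groups overlapped, and in CPM replicate 1 was the highest library of each. As a share of all counted reads, psbZ was instead lowest in replicate 1 of P19, at 0.138% against 0.182% and 0.152%. Counting error was small beside these differences, at most 0.170% of the count for psbD, 0.126% for psbC and 0.456% for psbZ.

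**Figure D1:**
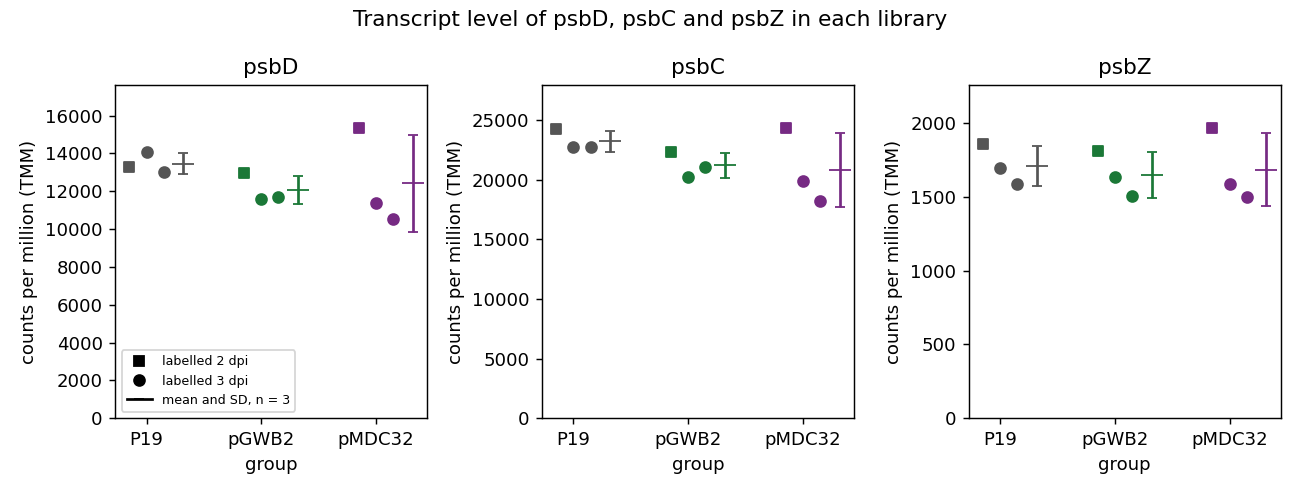
Level of psbD, psbC and psbZ in CPM after TMM scaling (vertical axis, from 0) in each library of the 3 groups, with squares for libraries labelled 2 dpi, circles for 3 dpi, and the mean with its SD (n = 3) beside them. The pGWB2 libraries lie below the P19 libraries for psbD and psbC, and pMDC32 replicate 1 is the highest library for all 3 genes.

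Whether the editor changed these transcripts was asked for each vector against P19. With pGWB2, psbD averaged 12066 ± 765 CPM against 13468 ± 562 CPM in P19 (SD, n = 3 each), which is -0.16 on the log2 scale (SE 0.15). psbC averaged 21221 ± 1059 against 23249 ± 870 CPM (SD, n = 3 each), which is -0.13 on the log2 scale (SE 0.12). psbZ averaged 1649 ± 153 against 1712 ± 136 CPM (SD, n = 3 each), which is -0.054 on the log2 scale (SE 0.15). None of the 3 passed the quasi-likelihood test of edgeR after Benjamini-Hochberg adjustment over all rows (adjusted p = 0.639, 0.639 and 0.858), beside 0% of the 105 plastid genes called. At an unadjusted p under 0.05 the same test had 6 plastid genes, none of them a member. At an adjusted p under 0.05 DESeq2 called 1 plastid gene and limma-voom 0. After TMM scaling the groups did not overlap for psbD and psbC, which was so for 14 of the 105 plastid genes (13.3%), 8 of them lower with pGWB2. The 95% intervals ran from -29.0% to 13.1% for psbD, from -24.7% to 10.7% for psbC and from -23.9% to 21.9% for psbZ.

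With pMDC32 the values were more spread. psbD averaged 12415 ± 2554 CPM (SD, n = 3), a log2 difference from P19 of -0.12 (SE 0.15, 95% interval -0.45 to 0.22). psbC averaged 20832 ± 3135 CPM (SD, n = 3), a log2 difference of -0.16 (SE 0.12, 95% interval -0.44 to 0.12). psbZ averaged 1685 ± 246 CPM (SD, n = 3), a log2 difference of -0.023 (SE 0.15, 95% interval -0.36 to 0.32). In edgeR's quasi-likelihood fit the adjusted p-values were 0.682, 0.628 and 0.927, again beside 0% of plastid genes called. That fit had 6 plastid genes at an unadjusted p under 0.05. At an adjusted p under 0.05 DESeq2 called 1 and limma-voom 0. The pMDC32 and P19 libraries overlapped for all 3, while 13 of 105 plastid genes (12.4%) showed no overlap. This comparison has the P19 libraries in common with that of pGWB2.

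The 6 editor libraries together gave the narrowest intervals against P19. The log2 difference was -0.14 for psbD (SE 0.12, 95% interval -0.40 to 0.13), -0.15 for psbC (SE 0.10, 95% interval -0.36 to 0.07) and -0.038 for psbZ (SE 0.12, 95% interval -0.31 to 0.23). None passed (adjusted p = 0.47, 0.407 and 0.844 in edgeR's quasi-likelihood fit), beside 0% of plastid genes called. That fit had 16 plastid genes at an unadjusted p under 0.05. At an adjusted p under 0.05 DESeq2 called 3 and limma-voom 0. The SE of psbC was the 4th smallest of 105, those of psbD and psbZ were 17th and 18th, and the median over plastid genes was 0.163. All 3 intervals stayed within 1.5-fold, as did those of 45 of the 105 plastid genes. The lowest bound among the 3 was a change of -24.4% (psbD) and the highest one of 17.2% (psbZ).

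The sign of all 3 differences depended on the scaling, and that of psbZ also on single libraries. With libraries scaled by total counts alone, the median plastid gene of the comparison of all editor libraries with P19 moved up by 0.18 on the log2 scale. The differences of psbD, psbC and psbZ then became 0.032, 0.037 and 0.15. Relative to the median gene they were -0.062, -0.069 and 0.038 after TMM and -0.068, -0.063 and 0.046 with total counts. With rRNA and tRNA rows left out the differences were -0.15, -0.16 and -0.052. Relative to the median gene they were then -0.146, -0.153 and -0.047. Leaving out P19 replicate 1 gave -0.099 for psbD, -0.065 for psbC and 0.072 for psbZ. Leaving out pMDC32 replicate 3 gave -0.067, -0.076 and 0.023, and leaving out P19 replicate 2 gave -0.084 for psbD. In the libraries labelled 3 dpi alone they were -0.23 (SE 0.09), -0.16 (SE 0.08) and -0.036 (SE 0.11), with adjusted p-values of 0.341, 0.47 and 0.92 in edgeR's quasi-likelihood fit.

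The lane number in the column names differs among libraries, with lane 4 holding P19 replicates 2 and 3 and all pGWB2 libraries. Within lane 4 the log2 difference of pGWB2 from P19 was -0.17 for psbD, -0.10 for psbC and 0.0078 for psbZ. Lane 8 holds P19 replicate 1 and pMDC32 replicates 1 and 2, and within it pMDC32 differed from P19 by 0.061 for psbD, -0.081 for psbC and -0.011 for psbZ. Lane 5 holds pMDC32 replicate 3 alone, and no lane holds libraries of both vectors. None of these values passed the test. In the same fits 0 of 105 plastid genes (0%) were called within lane 4 and 51 of 105 (48.6%) within lane 8, where P19 replicate 1 is the only P19 library.

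Between the vectors every interval included 0. The log2 difference of pMDC32 from pGWB2 was 0.041 for psbD (SE 0.15, 95% interval -0.29 to 0.38), -0.027 for psbC (SE 0.12, 95% interval -0.30 to 0.25) and 0.031 for psbZ (SE 0.15, 95% interval -0.31 to 0.37). The adjusted p was 0.998 for each in edgeR's quasi-likelihood fit, beside 0% of plastid genes called. That fit had 1 plastid gene at an unadjusted p under 0.05. At an adjusted p under 0.05 DESeq2 and limma-voom called 0. The vectors overlapped in all 3 genes, and 3 of 105 plastid genes (2.86%) had no overlap. Without pMDC32 replicate 1 the difference of psbD was -0.14, that of psbZ -0.094 and that of psbC -0.15.

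**Figure D2:**
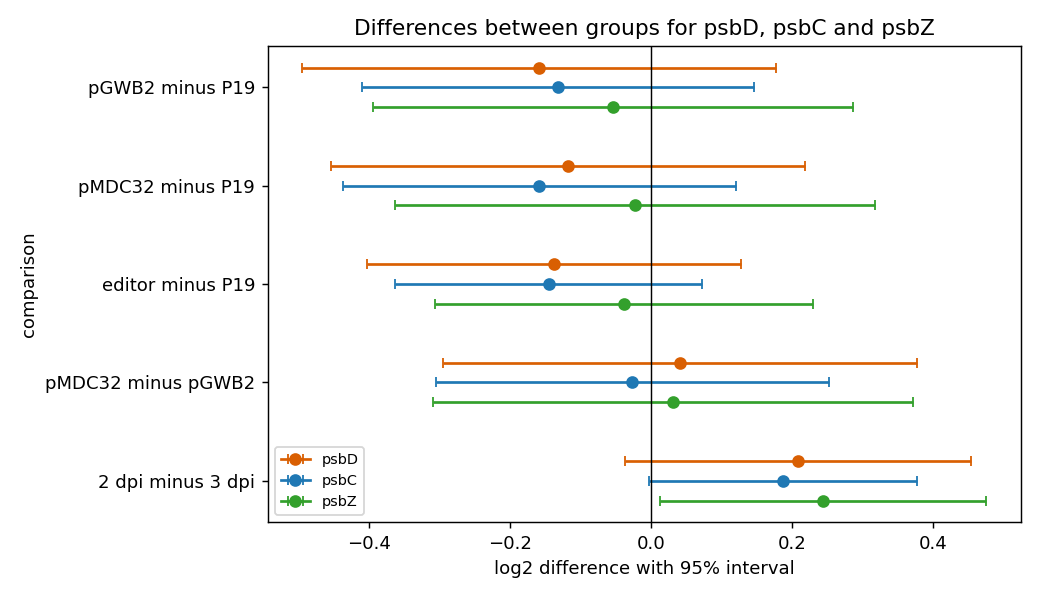
Log2 difference (horizontal axis) of psbD, psbC and psbZ in 5 comparisons (vertical axis), with 95% intervals of edgeR's quasi-likelihood fit. In the 4 comparisons of constructs every interval includes 0, and the 3 points of the labelled days lie between 0.19 and 0.24, with only the interval of psbZ above 0.

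Mean levels of all 3 transcripts were higher in libraries labelled 2 dpi than in those labelled 3 dpi, but none of them passed the test. psbZ stood at 1876 ± 80.1 CPM at 2 dpi (n = 3) and 1585 ± 75.5 at 3 dpi (SD, n = 6). In CPM every 2 dpi library exceeded every 3 dpi library. Such separation in CPM was seen in 7 of 105 plastid genes (6.67%), 5 of them higher at 2 dpi. As shares of all counted reads, without TMM scaling, the days overlapped for psbZ. The 2 dpi shares were 0.138% (P19), 0.186% (pGWB2) and 0.194% (pMDC32), and the 3 dpi shares ran from 0.152% to 0.182%. psbD stood at 13851 ± 1286 against 12049 ± 1284 CPM and psbC at 23642 ± 1116 against 20830 ± 1744 CPM (SD, n = 3 and n = 6), with overlap in both. With the group as covariate, the log2 differences were 0.24 for psbZ (SE 0.10, 95% interval 0.01 to 0.47), 0.21 for psbD (SE 0.11, 95% interval -0.04 to 0.45) and 0.19 for psbC (SE 0.08, 95% interval -0.002 to 0.38). The adjusted p was 0.296 for each in edgeR's quasi-likelihood fit, beside 0% of plastid genes called, with 12 at an unadjusted p under 0.05, among them psbZ (unadjusted p = 0.041). DESeq2 called 2 plastid genes and limma-voom 0, none of them a member. In the edgeR fit 12 of 12 other photosystem II genes were also higher at 2 dpi (median log2 difference 0.17), beside 47 of all 105 plastid genes. So were 5 of 6 cytochrome b6f genes, 3 of 5 photosystem I genes and 4 of 6 ATP synthase genes. Without P19 replicate 1, 6 of the 12 were higher (median 0.024), beside 57 of 105.

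Within the groups, replicate 1 minus the mean of replicates 2 and 3 on the log2 scale was 0.16 for psbD, 0.11 for psbC and 0.21 for psbZ with pGWB2. With pMDC32 these values were 0.48, 0.35 and 0.35, and in P19 they were -0.029, 0.092 and 0.18. The pMDC32 group thus had the widest gap for each gene. Without P19 replicate 1 the day differences were 0.35 for psbD (SE 0.11), 0.26 for psbC (SE 0.10) and 0.30 for psbZ (SE 0.12). Their adjusted p-values in edgeR's quasi-likelihood fit were 0.184, 0.209 and 0.209, with 2 of 105 plastid genes called. Without pMDC32 replicate 1, the highest library of each gene, the day differences were 0.064 for psbD, 0.10 for psbC and 0.19 for psbZ, with adjusted p-values of 0.748, 0.48 and 0.326 in edgeR's quasi-likelihood fit. With total counts, which lowered the median plastid gene (shift -0.20), the day differences were 0.014 for psbD, -0.010 for psbC and 0.046 for psbZ. Relative to the median gene they were 0.24, 0.22 and 0.28 after TMM and 0.25, 0.22 and 0.28 with total counts. With rRNA and tRNA rows left out they were 0.12, 0.099 and 0.16, and 0.24, 0.22 and 0.27 relative to the median gene. Within lane 4, where 1 pGWB2 library is the only one labelled 2 dpi, the day differences were 0.16, 0.11 and 0.20. Each group has 1 library labelled 2 dpi, and day cannot be told apart from replicate number.

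P19 replicate 1 departed from the other P19 libraries in many genes. Over the 105 plastid genes, its log2 difference from the mean of P19 replicates 2 and 3 had an SD of 0.708, against 0.321 for pGWB2 replicate 1 and 0.268 for pMDC32 replicate 1 from their own groups. For psbA the P19 value was 0.74, beside those of psbD, psbC and psbZ given above. Whether the effect of the editor differed between labelled days was tested on 4 cells, arm by day, with that library as the only P19 library at 2 dpi. An effect of the day on the editor and that 1 library cannot be told apart here, and the spread comes from the other cells alone. The test called 43 of 105 plastid genes (41%), and 0 of the 3. The difference of these effects, 2 dpi less 3 dpi, was 0.35 for psbD (SE 0.18, adjusted p = 0.126), 0.14 for psbC (SE 0.16, adjusted p = 0.501) and 0.098 for psbZ (SE 0.18, adjusted p = 0.667) in edgeR's quasi-likelihood fit. With total counts, which moved the median plastid gene up by 0.38, psbD (0.73, adjusted p = 0.00734) and psbC (0.51, adjusted p = 0.0172) passed the same test. Relative to the median gene psbD stood at 0.30 and psbC at 0.08 with TMM and with total counts. With rRNA and tRNA rows left out psbD was 0.083, psbC -0.13 and psbZ -0.17, or 0.17, -0.045 and -0.088 relative to the median gene.

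The other photosystem II genes were set beside the 3. Of these 12, 10 lay below P19 in the 6 editor libraries and 2 above, with a median log2 difference of -0.26, beside a median of -0.14 for psbD, psbC and psbZ and of -0.076 over all plastid genes. None of the 12 was called in either direction. Without P19 replicate 1, a setting chosen after seeing the data, 2 of the 12 lay below, with a median of 0.072, and 2 of the 3 lay below, with a median of -0.065. The smallest p-values among the 12 belonged to psbM, for a small subunit (log2 difference -0.52, adjusted p = 0.264), psbA (-0.40, adjusted p = 0.292) and psbF, for a cytochrome b559 subunit (-0.28, adjusted p = 0.372), in edgeR's quasi-likelihood fit. Those 3 stood at -0.22, -0.061 and 0.060 without P19 replicate 1. Nearest to 0 were psbB (-0.0018), psbH (-0.065) and psbT (0.072), which lie together in another operon and encode CP47 and 2 small subunits. These stood at 0.080, 0.13 and 0.15 without that library, farther from 0 than psbF.

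Genes of the other photosynthetic complexes gave 0 calls in the same comparison. Below P19 lay 3 of 5 photosystem I genes (median -0.29), 5 of 6 genes of the cytochrome b6f complex (median -0.25) and 0 of 6 ATP synthase genes (median 0.21). The numbers below were 0 of 5, 1 of 6 and 0 of 6 without P19 replicate 1.

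The balance among the 3 transcripts was measured as ratios of counts within a library, which need no scaling between libraries. psbC to psbD was 1.83, 1.62 and 1.74 in P19, 1.73, 1.75 and 1.80 with pGWB2, and 1.59, 1.75 and 1.73 with pMDC32. The groups overlapped, and the log2 ratio differed by -0.0025 between editor and P19 libraries (0.79 ± 0.06, n = 6, against 0.79 ± 0.09, n = 3, SD, exact permutation test, two-sided, p = 1). psbZ to psbC was 0.0765, 0.0744 and 0.0698 in P19, 0.0809, 0.0807 and 0.0714 with pGWB2, and 0.0808, 0.0798 and 0.0822 with pMDC32. Every pMDC32 library and 2 of 3 pGWB2 libraries exceeded every P19 library. The log2 ratio was 0.11 higher in editor libraries (-3.66 ± 0.07, n = 6, against -3.77 ± 0.07, n = 3, SD, exact permutation test, two-sided, p = 0.0714, adjusted 0.5).

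Members were also set against their partner subunits in photosystem II. The count ratio of psbC to psbB, the transcripts for CP43 and CP47, was 2.30, 2.48 and 2.17 in P19. It was 2.11, 1.89 and 2.07 with pGWB2, and 2.29, 2.05 and 2.13 with pMDC32. Proteins were not measured. Every pGWB2 library lay below every P19 library, and pMDC32 overlapped P19. The log2 ratio was lower by 0.15 in editor libraries (-0.15, with 1.06 ± 0.09, n = 6, against 1.21 ± 0.10, n = 3, SD). Its exact permutation test gave p = 0.0476, two-sided, and 0.5 after adjustment over the 20 tests of ratios, so that it did not pass. The difference ran from -0.19 to -0.097 as each library in turn was left out. The count ratio of psbD to psbA, the transcripts for D2 and D1, was 0.0161, 0.0321 and 0.0237 in P19. It was 0.0267, 0.0239 and 0.0267 with pGWB2, and 0.0305, 0.0283 and 0.0242 with pMDC32. P19 held both the lowest and the highest of the 9 values, and the log2 ratio differed by 0.21 between editor and P19 libraries (exact permutation test, two-sided, p = 0.369, adjusted 0.727). That difference was -0.050 without P19 replicate 1.

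Between single vectors, and between vector and P19, 3 libraries against 3 cannot give a p below 0.1 by this test. That smallest value was reached by psbZ to psbC with pMDC32 (log2 difference 0.14) and by psbC to psbB with pGWB2 (-0.19), both with an adjusted p of 0.5. Among the 20 tests of 4 ratios in 5 comparisons the smallest adjusted p was 0.5.

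**Figure D3:**
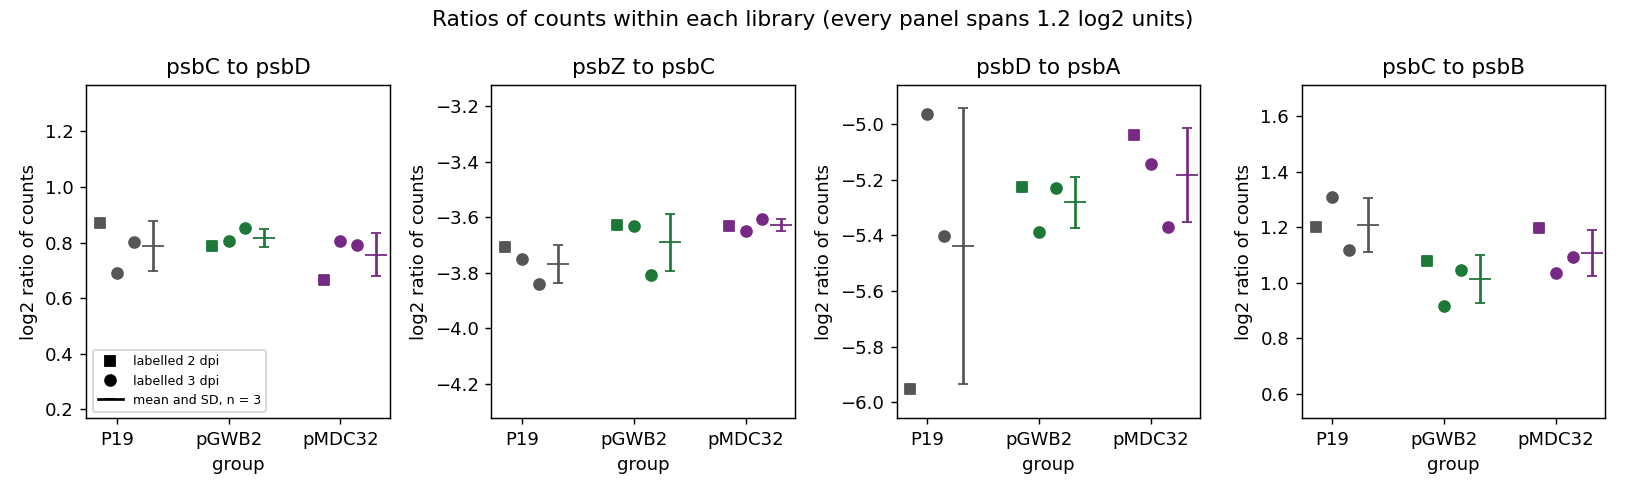
Log2 ratio of counts within each library (vertical axis, with the same span in every panel) for psbC to psbD, psbZ to psbC, psbD to psbA and psbC to psbB, by group, with squares for 2 dpi, circles for 3 dpi, and mean with SD (n = 3). The psbC to psbD ratio stays between 0.67 and 0.87, whereas psbD to psbA runs from -5.95 to -4.96, both ends in P19 libraries.

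The 3 genes kept close to each other across the 9 libraries. As a measure of likeness, the SD over libraries of the log2 ratio of 2 genes was taken, which is small when they keep the same proportion. It was 0.067 for psbD with psbC, 0.087 for psbC with psbZ and 0.097 for psbD with psbZ, against a median of 0.37 over all 5460 pairs of plastid genes. Smaller values were found in 0.330%, 0.659% and 1.03% of pairs. The SDs without P19 replicate 1 were 0.063, 0.093 and 0.100, and 0.513%, 1.85% and 2.36% of pairs had smaller ones. psbD and psbC were each other's nearest gene in both sets of libraries. These pairs share libraries and depth, the psbD and psbC rows share 17 nt, and genes that vary little come out alike by this measure.

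The second nearest gene to each of the 3 was rpl20, for a protein of the large ribosomal subunit, which lies outside their span. Its SD of the log2 ratio was 0.087 to psbD, 0.085 to psbC and 0.090 to psbZ over the 9 libraries. It was thus nearer to psbD and psbC than psbZ was (0.097 and 0.087), and nearer to psbZ than psbD was (0.097). Outside the 3, the next for psbD were ndhG, of the NDH complex (0.154), and psbB (0.159). For psbC they were psbB (0.113) and ndhG (0.118). For psbZ they were trnM (0.104) and atpF, of the ATP synthase (0.106). Without P19 replicate 1 rpl20 stayed second for psbD and psbC and stood 4th for psbZ. The nearest gene of psbZ was then atpA (0.074), also of the ATP synthase. psbC stood 5th (0.093) and psbD 6th (0.100) for psbZ in these libraries, both behind rpl20. The SD of the log2 level itself was 0.14 for psbZ, 0.14 for psbC and 0.17 for psbD, ranks 15, 16 and 21 from the smallest of 105, against a median of 0.27. Without P19 replicate 1 the ranks were 34, 30 and 61, and the median was 0.17.

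**Figure D4:**
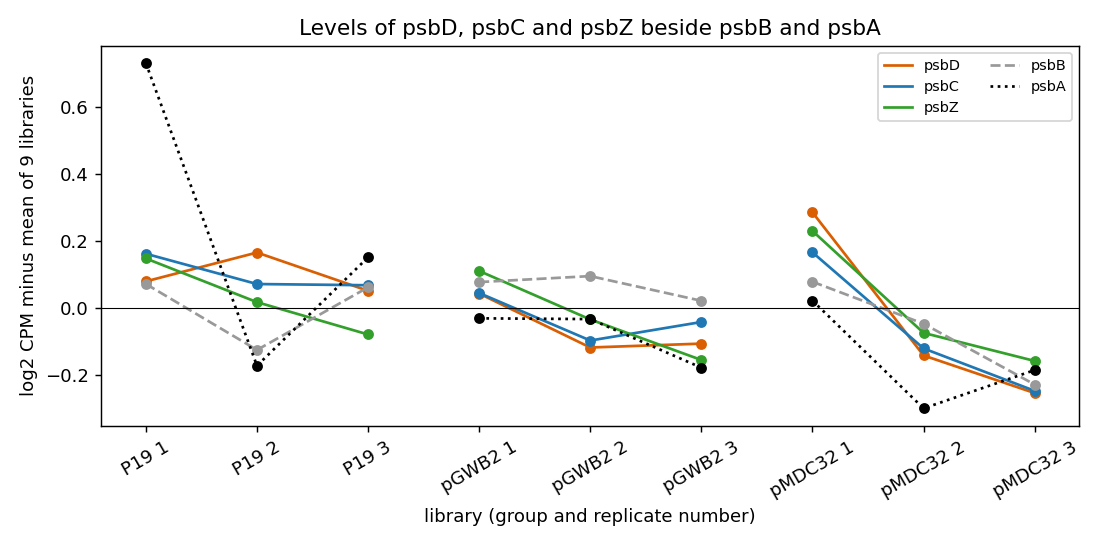
Log2 CPM of psbD, psbC, psbZ, psbB and psbA in each library (horizontal axis, group and replicate number) minus the mean of that gene over 9 libraries (vertical axis), with lines joining libraries of 1 group. The lines of psbD, psbC and psbZ lie close together in each group and are highest in pMDC32 replicate 1, whereas psbA peaks in P19 replicate 1.

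In counted reads per kilobase every tRNA row next to the 3 genes stood below them, and rps14 stood close to psbZ. These tRNA rows are 71 to 84 nt long, and how fully RNAs so short entered the libraries was not tested. On the side of psbZ, trnG lies 275 nt away on the same strand (38017 to 38087), then trnfM (38315 to 38388) and rps14 (38538 to 38840) on the other strand. On the side of psbD, 2150 nt without a row separate it from trnE, trnY and trnD (31895 to 32292), all on the other strand. Mean levels per kilobase were 489 CPM for trnG, 182 for trnfM, 2422 for trnE, 4778 for trnY and 5162 for trnD. They were 8898 CPM for psbZ and 8506 for rps14, of the small ribosomal subunit. In the 6 editor libraries against P19 the log2 difference was -0.47 for trnG (adjusted p = 0.292), -0.39 for trnfM (adjusted p = 0.314) and 0.096 for rps14 (adjusted p = 0.68) in edgeR's quasi-likelihood fit. It was -0.35 for trnE, -0.29 for trnY and -0.26 for trnD, each with an adjusted p of 0.292 by the same test. The trnG libraries of editor and P19 did not overlap, as was so for 7 of the 105 plastid genes (6.67%). Leaving out P19 replicate 1, these differences were -0.44 for trnG, -0.33 for trnfM, 0.062 for rps14, -0.13 for trnE, -0.14 for trnY and -0.11 for trnD.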

How the data were processed

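The authors deposited raw read counts per gene, which carry no normalization. Per the labels' protocols, ribosomal RNA was removed from leaf RNA before directional libraries were built. Alignment tool HISAT2 2.2.1 and counter featureCounts 2.0.1 stand in the submitters' processing notes, beside Trim Galore 0.6.10, FastQC 0.12.1 and DESeq2 1.42.0. The build, the strand setting and how overlapping or multiply mapped reads were treated are not stated.

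All 106 rows were fitted with edgeR 4.0.16 in R 4.3.3 by the quasi-likelihood test with TMM, filterByExpr and two-sided p-values with Benjamini-Hochberg adjustment (threshold 0.05). The script was tested on simulated data. DESeq2 1.42.0 and limma-voom (limma 3.58.1) were alternatives, with other scalings, row sets, blocks, lanes and libraries left out. Count ratios were compared by exact permutation tests. Likeness used log2 of counts plus 0.5. Replicates are biological according to the series text. Named genes followed a rule (the 3 genes, other photosystem II genes, neighbours, nearest genes by likeness). Members and lists were chosen with earlier results of these data known.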

Additional observations from a re-analysis of the deposited data

Results flagged for a closer look

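Among the 6 editor libraries, 7 quantities were checked for a library far from the others, and chance gives about 1 such case in 20 groups. The psbC to psbD ratio had 1 library apart, pMDC32 replicate 1 at 1.59 against 1.73 to 1.80 in the other 5, a gap of 0.658 of the whole range on the log2 scale, past the 95% limit of Dixon's test. The psbZ to psbC ratio had pGWB2 replicate 3 apart, at 0.0714 against 0.0798 to 0.0822, a gap of 0.788 of the range on the log2 scale. The log2 ratio of psbZ to psbC in editor libraries less that in P19 was 0.11, and it ran from 0.070 to 0.14 as each library in turn was left out.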

How the results depend on the processing

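By total counts the log2 differences from P19 of psbD, psbC and psbZ were 0.00058, 0.038 and 0.12 (pGWB2), 0.063, 0.035 and 0.17 (pMDC32) and 0.032, 0.037 and 0.15 (editor). For 2 dpi minus 3 dpi psbC was then -0.010, with 2 plastid genes called, and the editor effect at 2 dpi minus that at 3 dpi passed for psbD (0.73) and psbC (0.51). Without the psbA row, psbZ was 0.011 (pGWB2), 0.058 (pMDC32) and 0.035 (editor). For the editor effect at 2 dpi minus that at 3 dpi, psbZ was then -0.0011. Without rRNA and tRNA rows that difference of effects was -0.13 for psbC and -0.17 for psbZ. With lane as covariate psbZ was 0.0078 (pGWB2), psbD 0.0082 (pMDC32) and psbZ -0.070 (pMDC32 minus pGWB2). In these fits 49, 40 and 3 plastid genes were called for pMDC32 against P19, between vectors and between days. Lane 5 holds pMDC32 replicate 3 alone, and P19 replicate 1 is the only library of another group in lane 8. The counts of 49 and 40 therefore rest on P19 replicate 1, and the construct cannot be told apart from that library there. Within lane 4 psbZ was 0.0078 (pGWB2), psbD to psbA -0.099, and 1 gene was called between days. Within lane 8 psbD was 0.061 and 51 genes were called for pMDC32. In fits of only the groups compared psbZ was 0.026 (pMDC32), and 1 gene was called between vectors. In 3 dpi libraries alone psbD was -0.040 (between vectors), psbC to psbD 0.053 (pMDC32) and 0.067 (editor), and psbD to psbA -0.13, -0.074 and -0.10 (pGWB2, pMDC32, editor). DESeq2 called 1, 1, 3 and 2 plastid genes for pGWB2, pMDC32, editor and days. The cause of these shifts was not tested.

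As each library was left out, psbD, psbC and psbZ ran from -0.22 to -0.12, -0.18 to -0.074 and -0.14 to 0.033 (pGWB2), -0.30 to 0.0095, -0.28 to -0.051 and -0.15 to 0.11 (pMDC32), -0.21 to -0.067, -0.19 to -0.065 and -0.091 to 0.072 (editor), and -0.14 to 0.15, -0.15 to 0.065 and -0.094 to 0.16 (between vectors). For days they ran from 0.064 to 0.35, 0.10 to 0.27 and 0.19 to 0.31, with 0 to 2 genes called, and for the difference between days from 0.23 to 0.44, 0.071 to 0.18 and -0.018 to 0.16, with 34 to 60 called. psbC to psbD ran from -0.021 to 0.068, -0.080 to 0.012, -0.050 to 0.038 and -0.065 to 0.036 (pGWB2, pMDC32, editor, days), and psbD to psbA from -0.099 to 0.40, -0.0013 to 0.49, -0.050 to 0.45 and -0.34 to 0.12. No member passed in any of these fits, apart from psbD and psbC by total counts above. The difference between days could not be fitted without P19 replicate 1.

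Replicate numbers did not pair the libraries throughout: correlations of same-numbered deviations ran from -0.52 to 0.72, and the best match had its own number in 5 of 18 cases. The 0.72 was that of replicate 1 of pGWB2 with replicate 1 of pMDC32, each the best match of the other. With the replicate block the editor differences were -0.15 for psbD, -0.15 for psbC and -0.042 for psbZ, and 0 plastid genes were called in any comparison of constructs. The psbC to psbB ratio, editor against P19, gave an exact permutation p of 0.037 with the block, unadjusted. That is the smallest p this blocked test can give. Depth did not limit these genes, whose counts were 48161 or more.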
